A study of Mus musculus with 6 samples.

Results

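Chromatin at 43 cell cycle and DNA replication genes was described across 6 libraries of mouse embryonic fibroblasts (MEFs). The members are the cyclins and cyclin-dependent kinases, the Cdc25 phosphatases with Cdc20, the genes that license and carry out DNA replication, the E2F and retinoblastoma family, and genes of mitosis. They were taken as a list by name, 43 of the 21829 protein-coding genes of the annotation, and the rule uses no measured value.

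Open chromatin was measured by ATAC-seq, in which the Tn5 transposase cuts accessible DNA, in C57BL/6J MEFs from embryos at day 13.5. There was 1 library for each of 4 conditions: passage 1 in 20% oxygen (Norm-Pro), senescent in 20% oxygen (Norm-Sen), passage 1 in 3% oxygen (Hyp-Pro) and immortalized in 3% oxygen (Hyp-Imm). Binding of the transcription factor Tfcp2l1 was measured by ChIP-seq, with 1 library from senescent MEFs in 20% oxygen and 1 from immortalized MEFs in 3% oxygen, both of the same strain. No condition had a replicate, so that no test between conditions was possible, and intervals cover counting error only.

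Sample labels and file names disagree for every ATAC-seq library. By its file name the Norm-Pro library would be Hyp-Imm and the Hyp-Imm library Norm-Sen, while the Norm-Sen library would be Hyp-Pro and the Hyp-Pro library Norm-Pro. The labels were followed, and every direction between conditions depends on them. The files held between 37770 peaks (Hyp-Imm) and 69122 peaks (Norm-Pro) per ATAC-seq library. The genome-wide background, which rises with the depth of a library, was highest in Norm-Sen (1.77), followed by Norm-Pro (1.24), Hyp-Pro (0.956) and Hyp-Imm (0.445), the last being 25.2% of the deepest. The smallest pileup called a peak was 8, 6, 6 and 4 in the same order. Of 12 fibroblast markers, 4 (Col1a2, Vim, Fn1 and Twist1) had a promoter peak in all 4 libraries, 2 (Col3a1 and Prrx1) in none, and 7 in each 20% oxygen library, 5 in Hyp-Imm and 8 in Hyp-Pro. Of 12 markers of blood, epithelial, endothelial, nerve, muscle and liver cells, 2, 2, 2 and 1 had a promoter peak, and none had it in more than 2 libraries.

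Cells divide when cyclins bind and activate cyclin-dependent kinases, which phosphorylate the retinoblastoma protein and release E2F transcription factors to switch on the genes of DNA synthesis. Origins of replication are loaded with the Mcm helicase before S phase, and the mitotic genes are switched on later by B-Myb and Foxm1. In quiescent and senescent cells the retinoblastoma family, in part as the DREAM complex, holds these genes silent through E2F sites and through the cell cycle genes homology region (CHR). Proximal CCAAT boxes, bound by NF-Y, are common in the promoters of mitotic genes.

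The promoters that carry these letters are shown first, since many members share them and the rule that chose the members did not use sequence. RefSeq promoters of GRCm38.p6 were found for 33 of the 43 members, 37 promoters in all, from 250 bases before to 50 bases after the transcription start site (TSS). Ccna2, Ccnd1, Ccnd2, Ccne2, Cdc25c, Gmnn, Mcm4, Rb1, Aurkb and Foxm1 had no entry. An E2F match (TTTCCCGC, TTTGGCGC, TTTCGCGC or TTTGCCGC on either strand) was present in 12 of the 37 promoters, 32.4% (95% exact binomial interval 18.0 to 49.8), against 2.85% of all 21263 promoters of protein-coding genes and 3.68% of those whose gene had an ATAC-seq peak in any library. A CHR match (TTTGAA or TTCGAA) was present in 37.8% (22.5 to 55.2), against 17.6% of all promoters. A CCAAT box was present in 67.6% (50.2 to 82.0) against 38.2%, and a GC box (GGGCGG) in 83.8% (68.0 to 93.8) against 46.2%. Promoters of genes with a peak in any library, the nearer comparison because every member had one, held CHR letters in 13.7%, a CCAAT box in 37.4% and a GC box in 60.2%. In the 200 bp around the summit of all 43 members, E2F letters were found in 18.6% (8.39 to 33.4) against 2.31% of all genes with a peak. The GC box was found there in 67.4% (51.5 to 80.9) against 58.7%, a share within the interval. The 37 promoters belong to 33 genes and are not independent, and a match is a run of letters, not a shown binding site.

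**Figure D1:**
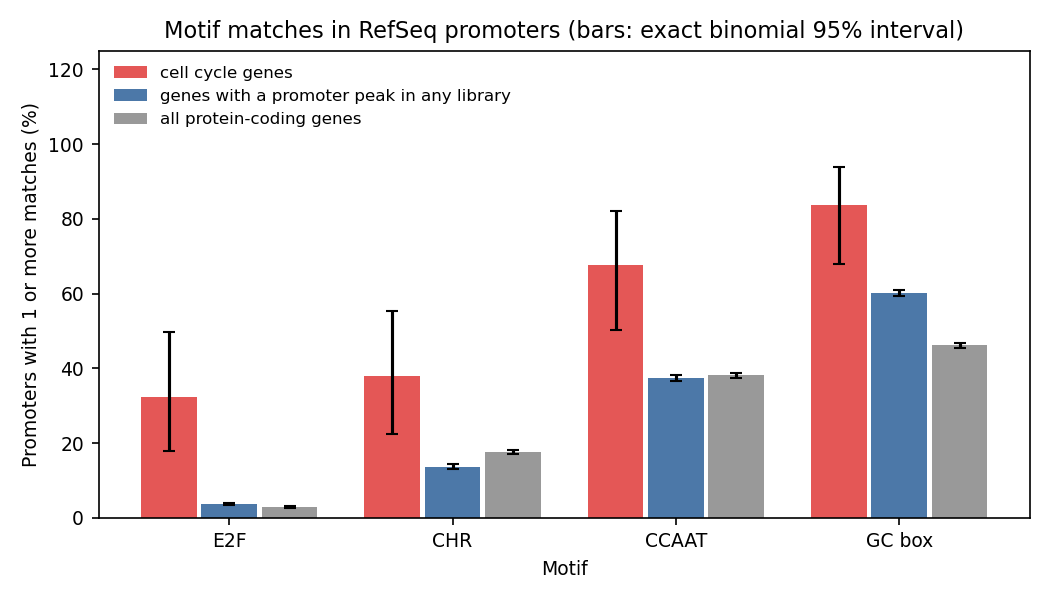
Share of RefSeq promoters (y axis, percent) with 1 or more matches of the 4 motifs (x axis), for the cell cycle genes, for genes with a promoter peak in any library and for all protein-coding genes, with exact binomial 95% intervals. The E2F letters stood at 32.4% in the cell cycle genes and at 2.85% in all genes.

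Cdk1, E2f3 and Mcm7 are shown because their promoters carried both an E2F and a CHR match, and Mcm6 because it had the most E2F matches. Printed are the 200 bases before the TSS on the strand of the gene, from RefSeq GRCm38.p6, with E2F, CHR and CCAAT matches of either strand in capitals. Positions count from the TSS, the base before it being -1.
Cdk1 (chr10:69352913-69353112, minus strand): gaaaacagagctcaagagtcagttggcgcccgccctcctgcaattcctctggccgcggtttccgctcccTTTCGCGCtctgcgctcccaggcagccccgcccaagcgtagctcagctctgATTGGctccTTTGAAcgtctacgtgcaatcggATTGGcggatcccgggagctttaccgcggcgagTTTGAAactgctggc
E2f3 (chr13:29986064-29986263, minus strand): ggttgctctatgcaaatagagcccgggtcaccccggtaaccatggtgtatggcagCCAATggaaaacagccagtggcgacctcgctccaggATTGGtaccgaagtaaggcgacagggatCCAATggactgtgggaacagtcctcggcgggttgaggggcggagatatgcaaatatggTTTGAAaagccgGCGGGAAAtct
Mcm7 (chr5:138171884-138172083, minus strand): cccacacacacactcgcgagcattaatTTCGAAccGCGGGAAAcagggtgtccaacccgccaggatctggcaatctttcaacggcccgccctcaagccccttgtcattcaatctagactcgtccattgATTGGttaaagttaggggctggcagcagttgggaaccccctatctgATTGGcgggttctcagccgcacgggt
Mcm6 (chr1:128359706-128359905, minus strand): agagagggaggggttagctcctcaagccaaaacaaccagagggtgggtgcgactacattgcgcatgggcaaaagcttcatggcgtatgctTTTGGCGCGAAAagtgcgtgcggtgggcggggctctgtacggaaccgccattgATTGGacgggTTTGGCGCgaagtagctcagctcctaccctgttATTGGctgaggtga
Cdk1, the kinase that drives entry into mitosis, had its E2F match at -131, CHR matches at -71 and -15 and CCAAT boxes at -80 and -48. E2f3, an activating E2F factor, had an E2F match at -11 and a CHR match at -23. Mcm7, a subunit of the replicative helicase, had a CHR match at -173 beside an E2F match at -165. Mcm6, another subunit of that helicase, had E2F matches at -110, -106 and -47, of which the first 2 overlap on opposite strands.

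A second set is shown because its genes had a promoter peak in only 1 of the 4 ATAC-seq libraries, Mcm2 in Norm-Sen and E2f2, Top2a and Plk1 in Norm-Pro.
Mcm2 (chr6:88898781-88898980, minus strand): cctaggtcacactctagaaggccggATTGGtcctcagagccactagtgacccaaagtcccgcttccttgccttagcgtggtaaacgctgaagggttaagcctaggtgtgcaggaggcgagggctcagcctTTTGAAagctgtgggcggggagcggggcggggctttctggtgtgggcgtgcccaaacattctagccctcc
E2f2 (chr4:136172074-136172273, plus strand): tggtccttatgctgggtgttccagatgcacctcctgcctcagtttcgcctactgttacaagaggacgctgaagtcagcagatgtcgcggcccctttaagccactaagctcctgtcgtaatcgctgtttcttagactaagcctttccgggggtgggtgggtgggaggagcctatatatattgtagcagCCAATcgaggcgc
Top2a (chr11:99024190-99024389, minus strand): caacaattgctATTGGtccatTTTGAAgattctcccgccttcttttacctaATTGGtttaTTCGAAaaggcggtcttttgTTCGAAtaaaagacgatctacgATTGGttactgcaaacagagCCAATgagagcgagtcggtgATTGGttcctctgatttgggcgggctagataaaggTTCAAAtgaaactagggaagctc
Plk1 (chr7:122159235-122159434, plus strand): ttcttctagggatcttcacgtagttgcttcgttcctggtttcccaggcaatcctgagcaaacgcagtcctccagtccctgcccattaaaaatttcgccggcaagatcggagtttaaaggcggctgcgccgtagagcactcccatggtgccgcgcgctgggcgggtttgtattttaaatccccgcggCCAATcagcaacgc
Mcm2, a helicase subunit, had a CHR match at -70 and a CCAAT box at -175. Top2a, which untangles DNA before chromosomes separate, had CHR matches at -179, -140, -120 and -23 and CCAAT boxes at -189, -149, -98, -78 and -58. Plk1, a mitotic kinase, had a CCAAT box at -14, and E2f2 had one at -13. Past the TSS, outside the printed bases, Plk1 also had a CHR match at 30 and E2f2 an E2F match at 39. Of the 15 members with a RefSeq promoter and a peak in all 4 libraries, 7 had E2F letters and 4 had CHR letters. Of the 18 with a peak in 1 to 3 libraries, 5 had E2F letters and 9 had CHR letters. The observed over expected frequency of CpG was alike in both groups, with a median of 0.875 and 0.893. It was 0.804 over promoters of all genes open in 4 libraries, 0.201 over those open in none and 0.567 over all promoters.

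Promoters of the members were open more often than those of genes at large. A promoter peak, that is a peak overlapping the 1 kb on either side of a protein-coding TSS, was found in Norm-Pro for 40 of 43 members, 93.0% (80.9 to 98.5), against 53.4% of all genes. In Norm-Sen it was found for 37, 86.0% (72.1 to 94.7), against 51.6%. Hyp-Pro had 33, 76.7% (61.4 to 88.2), against 48.1%, and Hyp-Imm 27, 62.8% (46.7 to 77.0), against 34.2%. The order of these counts was that of the number of peaks per library. It was not that of the background, which was higher in Norm-Sen than in Norm-Pro. Every member had a promoter peak in at least 1 library, whereas 34.0% of all genes had none. In all 4 libraries it was present for 22 members (51.2%), against 25.8%. In 3 libraries it was found for 12, in 2 for 4 and in 1 for 5. When each library was reduced to its 37770 peaks of highest -log10 q, the counts were 34, 35, 31 and 27. The shares of all genes were then 47.1%, 44.5%, 44.4% and 34.2%. If the file names held the true conditions, Hyp-Imm would have the most members with a peak (40) and Norm-Sen the fewest (27), with 33 in Norm-Pro and 37 in Hyp-Pro. In a bulk library, a promoter open in fewer cells and one less open in each cell cannot be told apart. For 6 members (Cdk2, Cdc25b, Mcm4, Mcm7, Aurka and Foxm1) the TSS of another protein-coding gene lies within 1 kb of theirs, and a peak there belongs to both.

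**Figure D2:**
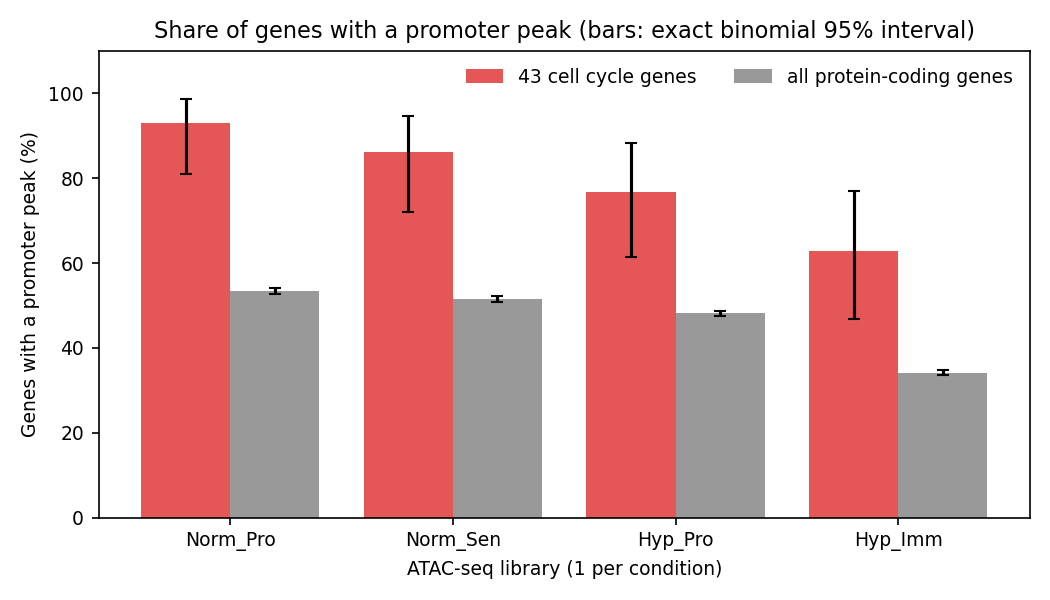
Share of genes with a promoter peak (y axis, percent) in each ATAC-seq library (x axis), for the 43 cell cycle genes and for all protein-coding genes, with exact binomial 95% intervals. The cell cycle genes stood above all genes in each library, from 93.0% against 53.4% in Norm-Pro to 62.8% against 34.2% in Hyp-Imm.

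The height of a peak is given as its summit pileup, the number of extended Tn5 cuts that overlap its highest point, recovered as a whole number from the deposited fold and p-value of each peak. Values over the libraries always give 20% oxygen first (Norm-Pro, then Norm-Sen) and 3% oxygen second (Hyp-Pro, then Hyp-Imm). The median pileup of the members was 17.5, 19, 17 and 10, against 17, 19, 15 and 9 over all genes with a promoter peak. The median percentile of the members among the promoter peaks of a library was 52.0, 51.6, 65.2 and 59.3, against 48.6, 51.6, 51.5 and 45.7 over all genes. It was thus close to that of all genes in 20% oxygen and higher in the 3% oxygen libraries. Above the median rank stood 20 of 40, 22 of 37, 23 of 33 and 18 of 27 members. For all genes these counts were 5578 of 11656, 5793 of 11263, 5485 of 10510 and 3497 of 7456. The 71 further pathway genes described below did not share this pattern, with medians of 48.6, 63.4, 51.5 and 45.7. By file name, the libraries labelled 3% oxygen would be those of 20% oxygen. Of the members open in a library, those open in all 4 had a median of 19.5, 21, 18.5 and 10, and the others 14.5, 17, 13 and 9. The medians of those open in all 4 stand at percentiles 61.4 to 66.6, 63.4, 70.8 to 75.7 and 59.3. For these same genes the percentile was thus lowest in Hyp-Imm.

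**Figure D3:**
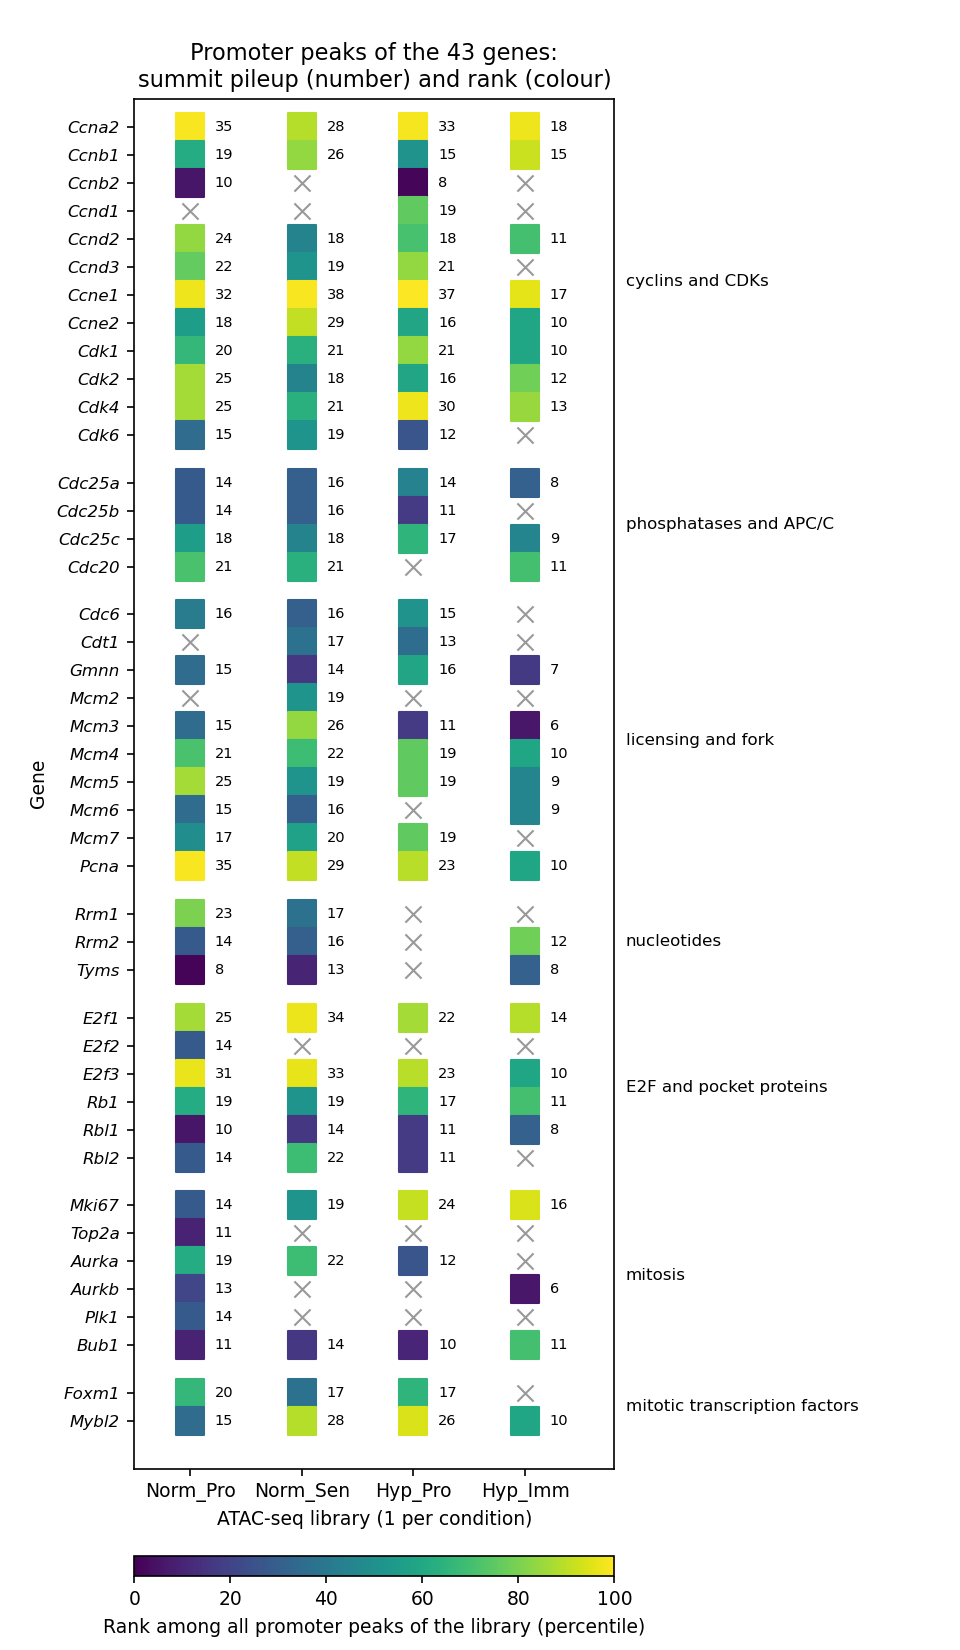
Promoter peaks of the 43 genes (y axis, grouped by role) in the 4 ATAC-seq libraries (x axis). The number is the summit pileup, the colour its percentile among all promoter peaks of the library, and a cross marks no peak. Ccne1 and Ccna2 are high in all 4 libraries, and crosses are most frequent in Hyp-Imm.

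Among the 12 cyclins and cyclin-dependent kinases, 11, 10, 12 and 8 had a promoter peak. Over all genes the shares were 53.4%, 51.6%, 48.1% and 34.2%, here and for the groups below. Ccne1, the cyclin that pairs with Cdk2 to start S phase, had the highest mean rank among the 22 members open in all 4 libraries, at percentile 97.9, with pileups of 32, 38, 37 and 17. Ccna2, the cyclin of S phase and early mitosis, followed at percentile 95.9 with pileups of 35, 28, 33 and 18. Both were near the top of every library, although the pileups themselves were lowest in the shallow Hyp-Imm library. Ccne2, the other E-type cyclin, had 18, 29, 16 and 10. Ccnb1, the cyclin of mitosis, had 19, 26, 15 and 15. Ccnd2, a growth-factor-responsive cyclin, had 24, 18, 18 and 11. Cdk1, Cdk2 and Cdk4, the kinases of mitosis, S phase and the response to growth factors, were open throughout, with pileups between 10 and 30.

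The D-type cyclin Ccnd1 stood apart from that group. It had a promoter peak in Hyp-Pro only (chr7:144939681-144939852), with a pileup of 19 (95% Poisson interval 11.4 to 29.7) over a local background of 3.77 and a -log10 q of 4.90. Ccnb2, a second mitotic cyclin, had peaks of 10 in Norm-Pro and 8 in Hyp-Pro and none in Norm-Sen or Hyp-Imm, so that it was called in both passage 1 libraries only. Ccnd3 (22, 19 and 21) and Cdk6 (15, 19 and 12), a D-type cyclin and a kinase it activates, were open in 3 libraries and had no peak in Hyp-Imm.

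The phosphatases that remove the inhibitory marks from cyclin-dependent kinases were open in most libraries. Cdc25a had 14, 16, 14 and 8, and Cdc25c had 18, 18, 17 and 9. Cdc25b had 14, 16 and 11 and no peak in Hyp-Imm. Cdc20, which activates the anaphase-promoting complex, had 21, 21 and 11 and no peak in Hyp-Pro.

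Of the 10 genes that license origins or act at the fork, 8, 10, 8 and 6 had a promoter peak. The shares of all genes were 53.4%, 51.6%, 48.1% and 34.2%. All 10 were open only in Norm-Sen, the library of highest background. Of 30 other replication genes, described below, 27, 23, 26 and 17 were open, fewer in Norm-Sen than in Norm-Pro. Pcna, the sliding clamp of the replication fork, ranked highest of the 10 in Norm-Pro, Norm-Sen and Hyp-Pro, with pileups of 35, 29, 23 and 10. Mcm4 (21, 22, 19 and 10) and Mcm5 (25, 19, 19 and 9), subunits of the helicase, were also open throughout. The Mcm4 summits lay at 10, -128, -481 and -591 bp from the nearest of its TSS. Its pileups are therefore not all of the same place. Mcm3 had 15, 26, 11 and 6, highest in Norm-Sen. Gmnn, which keeps Cdt1 from loading origins again, was among the 3 lowest by mean rank, at percentile 31.4, with 15, 14, 16 and 7. Its summit lay within 100 bp of the nearest of its 4 TSS in the first 3 libraries and 882 bp downstream in Hyp-Imm. The nearest TSS was not the same in Norm-Pro and Norm-Sen.

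The remaining licensing genes lacked a peak somewhere. Mcm2 had a peak in Norm-Sen only (chr6:88898697-88898821), with a pileup of 19 (11.4 to 29.7), a local background of 4.42 and a -log10 q of 4.02. Cdt1, which loads the helicase together with Cdc6, had 17 in Norm-Sen over a local background of 4.93 and 13 in Hyp-Pro over 2.49. The 2 Cdt1 peaks did not coincide, with summits at -61 and -499 bp from the TSS. Cdc6 (16, 16 and 15) and Mcm7 (17, 20 and 19) had no peak in Hyp-Imm, and Mcm6 (15, 16 and 9) had none in Hyp-Pro.

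None of the 3 genes of nucleotide supply had a promoter peak in Hyp-Pro. Rrm1, the large subunit of ribonucleotide reductase, had 23 and 17 in the 20% oxygen libraries and no peak in either 3% oxygen library. Rrm2, its small subunit, had 14, 16 and 12 in Norm-Pro, Norm-Sen and Hyp-Imm. Tyms, which makes thymidylate, had 8, 13 and 8 in the same libraries. The list holds few genes, and Hyp-Pro lacked 4 of the 26 members that were open in the other 3 libraries (15.4%, 4.36 to 34.9), against 7.55% of all genes.

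In the E2F and pocket protein group 6, 5, 5 and 4 genes of 6 had a promoter peak. E2f1 (25, 34, 22 and 14) and E2f3 (31, 33, 23 and 10), the activating factors of S phase genes, were high, with E2f1 the third of the members open in all 4 libraries at percentile 89.8. E2f2, the other activating factor, had a peak in Norm-Pro only (chr4:136172818-136172919), with a pileup of 14 (7.65 to 23.5) and a summit 451 bp downstream of the TSS. Rb1, the retinoblastoma protein, had 19, 19, 17 and 11. Rbl1, the pocket protein p107, was open in all 4 with 10, 14, 11 and 8, the lowest mean rank at percentile 17.4. Rbl2, the pocket protein p130 of the DREAM complex, had 14, 22 and 11 and no peak in Hyp-Imm.

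All 6 mitotic genes were open in Norm-Pro (53.4% of all genes) and 3 in each of the other libraries (51.6%, 48.1% and 34.2% of all genes). Of 26 other mitosis genes, described below, 25, 25, 23 and 14 were open. Among them 0 were open in Norm-Pro and lacked a peak in Norm-Sen. Top2a had a peak in Norm-Pro only (chr11:99024124-99024233), with a pileup of 11 (5.49 to 19.7) over a local background of 2.08. Plk1 likewise had a peak in Norm-Pro only (chr7:122159317-122159416), with 14 (7.65 to 23.5) over 3.46. The Plk1 peak lies within the promoter printed above and the Top2a peak overlaps it from the side of the gene, and both had a -log10 q under 3. Aurkb, the kinase of the chromosomal passenger complex, had 13 in Norm-Pro at the TSS and 6 in Hyp-Imm at 854 bp downstream. Aurka, the centrosome kinase, had 19, 22 and 12 and no peak in Hyp-Imm. Bub1, a spindle checkpoint kinase, had 11, 14, 10 and 11, and Mki67, the source of the Ki-67 antigen of dividing cells, had 14, 19, 24 and 16. Bub1 was among the 3 lowest by mean rank, at percentile 26.5, although in Hyp-Imm it stood at percentile 70.2.

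Of the transcription factors of mitotic genes, Foxm1 had 20, 17 and 17 and no peak in Hyp-Imm. Mybl2, which encodes B-Myb, had 15, 28, 26 and 10.

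Senescent and passage 1 cells in 20% oxygen were compared first, which asks what differs at senescence. Promoter peaks were present in Norm-Pro and not in Norm-Sen for 5 members, Ccnb2, E2f2, Top2a, Aurkb and Plk1, 11.6% (3.89 to 25.1), against 9.33% of all genes. They were present in Norm-Sen and not in Norm-Pro for 2, Cdt1 and Mcm2, against 7.53%. Both shares lie near or below the share of all genes, with intervals that hold it.

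In 3% oxygen, promoter peaks were present in Hyp-Pro and not in Hyp-Imm for 11 members, 25.6% (13.5 to 41.2), against 19.5% of all genes. The reverse held for 5 (Cdc20, Mcm6, Rrm2, Tyms and Aurkb), 11.6%, against 5.53%. Of the 30 members open in the other 3 libraries, 8 had no peak in Hyp-Imm (26.7%, 12.3 to 45.9), namely Ccnd3, Cdk6, Cdc25b, Cdc6, Mcm7, Rbl2, Aurka and Foxm1. Among all genes open in the other 3 libraries the share was 31.8%, which lies within the interval of the members.

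Immortalized cells in 3% oxygen were set against senescent cells in 20% oxygen, the states reached by long culture. Peaks were present in Norm-Sen and not in Hyp-Imm for 11 members, 25.6%, against 22.1%. In the other direction there was 1, Aurkb, 2.33% (0.0589 to 12.3), against 4.69%. If the file names held the true conditions, these counts would be 0 and 13, so that the direction would turn. Between the passage 1 libraries, peaks were present in Norm-Pro and not in Hyp-Pro for 9 members, 20.9% (10.0 to 36.0), against 11.5%, and in Hyp-Pro and not in Norm-Pro for 2 (Ccnd1 and Cdt1), against 6.25%. These comparisons share libraries and are not independent of each other. Their shares count genes open or not, and members were open more often in every library. Of those open in Norm-Pro, 9 of 40 members and 2510 of 11656 genes had no peak in Hyp-Pro. In Norm-Sen 5 of the 40 and 2036 of the 11656 had none. Peaks of Hyp-Pro were lacking in Hyp-Imm for 11 of 33 and 4261 of 10510. For Norm-Sen it was 11 of 37 and 4830 of 11263. On this base the members' shares lay near or below those of all genes.

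For missing peaks, the pileup that the depth of a library would have allowed was computed. For the 11 members open in Norm-Sen and not in Hyp-Imm, the Norm-Sen pileup scaled by the median ratio of genes open in all 4 libraries came to between 7.31 and 10.1, where 5 to 7 would have been called at the scaled local background. In none was the scaled value below the pileup needed, and in 8 of the 11 its 95% interval reached below it. Whether depth accounts for the missing peaks was not tested. The 3 whose interval stayed above it were Cdk6, Rbl2 and Aurka, with scaled intervals of 5.23 to 13.6, 6.30 to 15.2 and 6.30 to 15.2 where 5, 5 and 6 were needed. For the 11 members open in Hyp-Pro and not in Hyp-Imm, the interval reached below the needed pileup in 9, Ccnd3 and Mcm7 being the exceptions. The ratio was taken over genes that are open in Hyp-Imm, which favours high scaled values. For the 5 members open in Norm-Pro and not in Norm-Sen it reached below in all 5. For the 9 members open in Norm-Pro and not in Hyp-Pro, the scaled interval reached below the needed pileup in 6. The exceptions were Cdc20, Mcm6 and Rrm1, with scaled pileups of 17.9, 12.8 and 19.6 where 9, 7 and 8 were needed.

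Summit heights of members open in both libraries of a pair were compared as log2 ratios, centred on the median of the 5631 genes open in all 4 libraries. The centres were 0.12 for Norm-Sen over Norm-Pro, -0.78 for Hyp-Imm over Hyp-Pro, -1.13 for Hyp-Imm over Norm-Sen and -0.23 for Hyp-Pro over Norm-Pro. The median centred ratio of the members was -0.02 over 35 genes, -0.10 over 22, 0.16 over 26 and 0.07 over 31. Over all genes with a peak in both libraries it was 0.02, 0.01, 0.03 and -0.01. The 2 peaks of a gene do not always lie at the same place, since the peak of highest -log10 q near any TSS of the gene was taken in each library. They did not overlap for 6 of 35, 6 of 22, 7 of 26 and 7 of 31 members (17.1%, 27.3%, 26.9% and 22.6%, against 22.8%, 27.9%, 27.6% and 24.7% of all genes), and such a ratio compares different places. Among these were Ccnd3 and Rb1 in Norm-Sen over Norm-Pro, Ccnd2 and E2f3 in Hyp-Imm over either other library, and Cdk6 in Hyp-Pro over Norm-Pro. Mcm4 was another, in Hyp-Pro over Norm-Pro and in Hyp-Imm over Norm-Sen. Over the members whose peaks overlapped, a restriction added after the data were seen, the medians were -0.03, -0.12, 0.13 and 0.06.

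**Figure D4:**
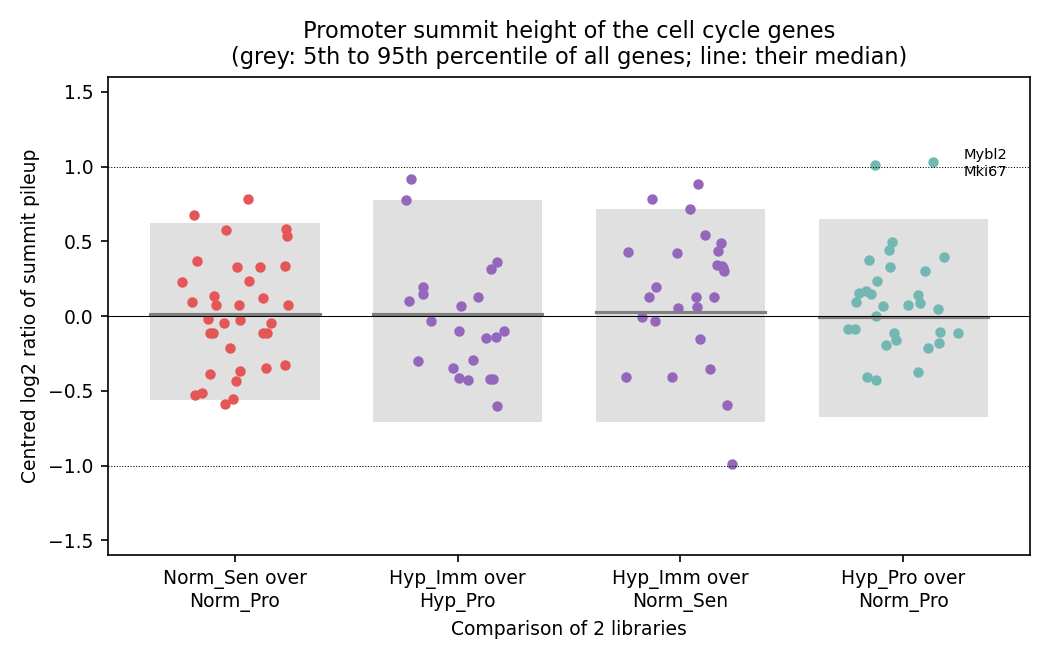
Centred log2 ratio of summit pileup (y axis) for the cell cycle genes open in both libraries of each pair (x axis, 1 dot per gene). Grey spans the 5th to 95th percentile of all genes and the line their median. Mki67 at 1.01 and Mybl2 at 1.03 in Hyp-Pro over Norm-Pro are the dots past 1.

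A centred ratio of 1 or more in size, that is at least a doubling, was reached by 2 members, both higher in Hyp-Pro than in Norm-Pro. Mki67 had a pileup of 14 in Norm-Pro and 24 in Hyp-Pro, a centred log2 ratio of 1.01 (95% interval 0.0028 to 2.08). Mybl2 had 15 and 26, a ratio of 1.03 (0.057 to 2.05). The share of all genes past this size was 0.765% higher and 0.689% lower, and 0 members were lower. Without centring, or with the deposited fold in place of the pileup, neither passed 1, and the lower bounds lie close to 0. In Norm-Sen over Norm-Pro 0 members were past 1 in either direction (all genes 0.426% higher and 0.177% lower). In Hyp-Imm over Hyp-Pro there were also 0 (1.22% and 0.944%), and in Hyp-Imm over Norm-Sen 0 (0.886% and 1.21%). The member nearest to the limit there was Mcm3, at -0.99 (-2.56 to 0.33), with pileups of 26 in Norm-Sen and 6 in Hyp-Imm.

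Away from promoters, open regions were found for a smaller share of the members than of all genes in 3 of the 4 libraries. Regions were merged over the 4 libraries and counted within a gene or 5 kb of it, over 1 kb from every protein-coding TSS. Of the 43 members 26 had such a region in any library, 60.5% (44.4 to 75.0), against 70.1% of all genes. By library 11, 12, 9 and 16 members had a region, or 25.6% (13.5 to 41.2), 27.9% (15.3 to 43.7), 20.9% (10.0 to 36.0) and 37.2% (23.0 to 53.3), against 46.2%, 44.5%, 37.7% and 33.1% of all genes. In Hyp-Imm alone the share of the members was not below that of all genes. Among the 71 regions, 46 lie in introns, 8 overlap exons and 17 lie outside the gene. Of the 71, 61 were called in a single library (85.9%). The share was 91.8% over all regions off promoters, which include those far from any gene. The median length of the members' genes was 15307 bp, against 17385 bp of all genes. Per 100 kb of genes with their flanks, the members had 1.62, 1.68, 0.811 and 1.37 regions. For all genes these values were 2.08, 1.86, 1.33 and 1.11, so that by length the members were above all genes in Hyp-Imm.

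Long genes held most of these regions. Cdk6 had 15, all in introns, of which 9, 6, 2 and 3 were called in the 4 libraries in the order given. E2f3 had 8, with 1, 5, 1 and 1, and Ccnd3 had 8 intronic regions, with 3, 4, 4 and 2. Rb1 had 6, with 4 in Norm-Pro and 2 in Norm-Sen and none in 3% oxygen. Ccnd1 had 4 (2, 1, 1 and 3), all outside the gene and 3 of them within LTO1, Rbl1 3 (2, 1, 1 and 1) and Rbl2 3, all in Norm-Sen. Apart from Ccnd1, these are genes over 50 kb long, and single-library regions make up most of their counts.

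**Figure D5:**
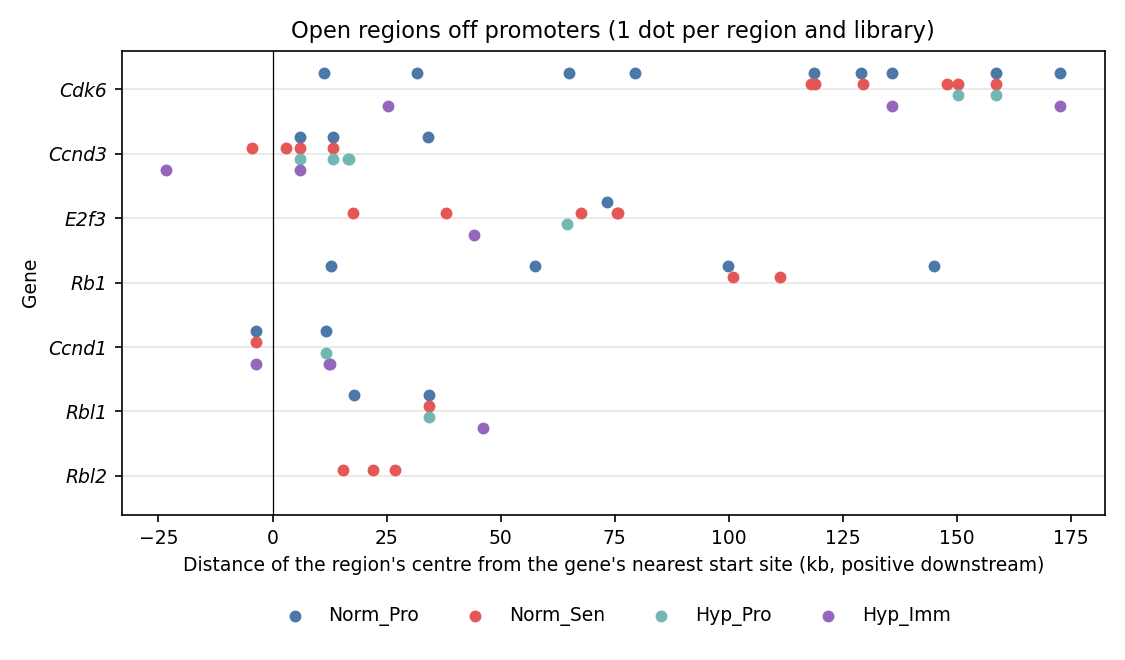
Open regions off promoters of the 7 genes with 3 or more (y axis), by the distance of the region's centre from the nearest TSS of the gene (x axis, kb). Each dot is a region called in the library of its colour. Dots stacked in all 4 colours occur once, in Ccnd3 at 6.01 kb.

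The intron of Ccnd3 held the 1 region open in all 4 libraries, at chr17:47511127-47511368, with pileups of 21, 25, 17 and 12. Its highest pileup was in Norm-Sen and its lowest in the shallow Hyp-Imm library. In Cdk6, the region at chr5:3502789-3503048 was open in 3 libraries, with 13, 16 and 18, and lacked a peak in Hyp-Imm. Both are shown from RefSeq GRCm38 on the plus strand, as the recurrent intron regions with the AP-1 letters TGACTCA, printed in capitals.
Ccnd3 intron (chr17:47511127-47511368, plus strand): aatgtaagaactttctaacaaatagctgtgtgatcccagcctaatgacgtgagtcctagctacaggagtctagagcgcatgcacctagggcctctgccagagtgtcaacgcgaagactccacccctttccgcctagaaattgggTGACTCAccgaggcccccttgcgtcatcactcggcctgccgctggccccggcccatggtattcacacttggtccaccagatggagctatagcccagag
Cdk6 intron (chr5:3502789-3503048, plus strand): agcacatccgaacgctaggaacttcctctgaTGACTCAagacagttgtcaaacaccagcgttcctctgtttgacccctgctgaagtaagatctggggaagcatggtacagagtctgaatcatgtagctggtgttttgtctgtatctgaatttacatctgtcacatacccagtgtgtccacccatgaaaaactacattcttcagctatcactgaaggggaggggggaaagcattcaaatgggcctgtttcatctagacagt
AP-1, the Fos and Jun dimer of serum-stimulated fibroblasts, binds such letters. They were present on either strand in 8 of the 71 member regions, 11.3% (4.99 to 21.0), against 4.64% of all 145838 regions off promoters. Among regions in 2 or more libraries the shares were 3 of 10, 30.0% (6.67 to 65.2), against 14.2%. Those 10 were wider, with a median of 234.5 bp against 188.5 bp. Both comparisons include regions far from any gene. These letters were chosen after the regions had been seen.

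The other recurrent regions had peaks in 3 libraries. A region 3.65 kb upstream of Ccnd1 lies at chr7:144943367-144943669, with pileups of 23 and 19 in 20% oxygen, 7 in Hyp-Imm and no peak in Hyp-Pro, the library in which the Ccnd1 promoter had its peak. A region outside Cdc25a, 11.3 kb from its nearest TSS (chr9:109894768-109894990) had 12, 19 and 8 and was absent from Hyp-Pro. A second Ccnd3 intron region (chr17:47518375-47518561) had 13, 17 and 14, and a Rbl1 intron region (chr2:157170194-157170420) had 10, 14 and 10, neither with a peak in Hyp-Imm.

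Neither ChIP-seq library had a Tfcp2l1 peak within 1 kb of any member's TSS. Such peaks were rare at all genes, at 0.348% in senescent and 0.334% in immortalized MEFs, so that 43 genes are too few to tell the members from the rest. Within 100 kb, the ChIP-seq library of senescent MEFs had peaks near 3 members, Aurkb, Cdc25c and Ccnd3, 6.98% (1.46 to 19.1), against 4.80% of all genes. The library of immortalized MEFs had peaks near 8, Aurkb, Mcm5, Pcna, Ccnd3, Ccne1, Bub1, Cdt1 and Top2a, 18.6% (8.39 to 33.4), against 6.70%. With peaks of a -log10 q of at least 5 that number was 3, and within 50 kb it was 1. The share of all genes at these settings is not given, so these falls cannot be read as particular to the members.

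Aurkb accounts for the strongest of these peaks. It had 8 in each ChIP-seq library, 7 of them shared, with a -log10 q between 7.21 and 53.7 in senescent MEFs and between 5.31 and 33.4 in immortalized MEFs. All 8 in each library lie within 500 bp of a tRNA gene, in a stretch of chromosome 11 with 18 tRNA genes within 100 kb of Aurkb. The nearest is 3.85 kb upstream of the TSS and covers the tryptophan tRNA gene n-TWcca7 at chr11:69041826-69041897, printed in capitals in the peak of senescent MEFs.
Aurkb upstream peak (chr11:69041691-69041937, plus strand): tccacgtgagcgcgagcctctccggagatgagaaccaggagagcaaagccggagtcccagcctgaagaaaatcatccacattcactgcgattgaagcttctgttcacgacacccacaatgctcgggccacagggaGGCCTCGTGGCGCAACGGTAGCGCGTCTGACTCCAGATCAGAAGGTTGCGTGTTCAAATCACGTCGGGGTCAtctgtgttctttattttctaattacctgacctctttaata
Its pileup was 40 in senescent MEFs (fold 7.74) and 30 in immortalized MEFs (fold 8.37). The same place had an ATAC-seq region in Norm-Sen only (chr11:69041715-69041898), with a pileup of 19, a library in which the Aurkb promoter had no peak.

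Peaks near the other members were not shared. Their -log10 q lay below that of most Aurkb peaks of the same library, though the ranges overlap. In senescent MEFs there were 2, both off tRNA genes. That near Cdc25c had a pileup of 11 and a -log10 q of 7.48 and lies 7.78 kb from it, but 242 bp from the TSS of Fam53c. That of Ccnd3 lies 28.7 kb downstream of the TSS within the gene, with a pileup of 9 and a -log10 q of 6.38. In immortalized MEFs there were 7, between 58.7 kb and 97.1 kb away, with a -log10 q between 2.19 and 5.52. That of Mcm5 had the highest -log10 q, with a pileup of 8, and that of Ccne1 the highest pileup, 14. In each of the 7 another gene's TSS was nearer, and 1 of them, that near Ccne1, coincided with an ATAC-seq peak in all 4 libraries.

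Other genes of the pathway gave counts of a like size. Of 71 further genes of replication, mitosis and E2F or checkpoint control, 67, 61, 62 and 43 had a promoter peak. These are 94.4%, 85.9%, 87.3% and 60.6%, against 53.4%, 51.6%, 48.1% and 34.2% of all genes. In all 4 libraries 38 had it (53.5%, against 51.2% of the members and 25.8% of all genes). Among 30 replication genes 27, 23, 26 and 17 were open. Cdc45, a helicase cofactor, had 16, 16 and 11 and no peak in Hyp-Imm, and Cdc7, the kinase that fires origins, had 9 in Norm-Pro and 11 in Hyp-Pro only. Fen1 and Prim1, for flap removal and primer synthesis, had no promoter peak in any library. Of the GINS subunits, Gins1 had 13, 17 and 11 with none in Hyp-Imm, and Gins3 had 13, 18 and 8 with none in Hyp-Pro.

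Among 26 mitosis genes 25, 25, 23 and 14 were open. Anln, an anillin of the contractile ring, had 18, 16 and 22 and no peak in Hyp-Imm, and Bub1b, a checkpoint kinase, had a peak of 9 in Hyp-Pro only. Bub3 had 13, 16 and 12 and no peak in Hyp-Pro, whereas Cenpa, the centromeric histone, had 17 and 19 and no peak in 3% oxygen. Of 15 E2F, DREAM and checkpoint genes 15, 13, 13 and 12 were open. E2f5, a repressive E2F factor, had 15, 23 and 15 and no peak in Hyp-Imm, and E2f6 had 16 in Norm-Pro only. Of the DREAM subunits, Lin37 had 14, 21 and 11 with none in Hyp-Pro, and Lin9 had 15, 15 and 7 with none in Norm-Sen. As for the members and for all genes, the lowest count of each list was in Hyp-Imm, the library of lowest background.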

How the data were processed

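ATAC-seq was carried out on 4 libraries and Tfcp2l1 ChIP-seq on 2. Per the labels and the methods, the authors aligned ATAC-seq reads with Bowtie2, removed pairs over 2 kb apart, shifted read starts for Tn5 and ran MACS2 on each library separately (FDR 0.05), and ChIP-seq reads were aligned with Bowtie and peaks called with MACS2. The deposited peak lists give a fold over the local background (a ratio), a −log10 p and a −log10 q for each summit. The ATAC-seq build was GRCm38, and the ChIP-seq build was taken to be the same from its positions. Reads were not analysed here.

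The whole-number pileup was solved from the deposited fold and −log10 p and was recovered for 100% of peaks (tolerance 0.001 on −log10 p). Genes were those of GENCODE on GRCm38. On simulated data 4961 of 4961 pileups and 200 of 200 planted promoter peaks were found. Intervals are exact binomial, Poisson or, for ratios, conditional binomial at 95% and cover counting error only, PCR duplicates included. Each condition has 1 library, so no test between conditions was made. The genes named with every value were those lacking a promoter peak somewhere, the 3 highest and lowest in mean rank, those past a centred log2 ratio of 1, those with 3 or more regions off promoters, those with a ChIP-seq peak within 100 kb, and up to 4 per further list in alphabetical order. The members and lists were chosen with earlier results of these data known. A gene's pileup is that of its promoter peak of highest −log10 q in the library. Alternatives were a stricter q, equal peak numbers, other windows, flanks, distances, TSS and scalings, and conditions by file name. Python 3.11.15, NumPy 2.4.6, pandas 2.3.3, SciPy 1.17.1, pysam 0.24.0 and matplotlib 3.10.9 were used.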

Additional observations from a re-analysis of the deposited data

How the results depend on the processing

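Of the values recomputed, the counts given here moved by more than 1.5 times and the shares past their counting interval or by more than 1.5 times, and the cause was not tested. Most of these counts stand without the share of all genes at the same setting. Such a count does not tell a change in the members from a change in all genes. With conditions taken from the file names, promoter peaks were present in Norm-Pro and not Norm-Sen for 11 members and the reverse for 5, in Hyp-Pro and not Hyp-Imm for 2, in Norm-Sen and not Hyp-Imm for 0 and the reverse for 13, in Norm-Pro and not Hyp-Pro for 2 and the reverse for 6. Past a centred ratio of 1, 3 members were then lower in Hyp-Imm than in Norm-Sen and 0 higher in Hyp-Pro than in Norm-Pro. With peaks of a −log10 q of at least 5, 26 members had a promoter peak in Norm-Pro (60.5%, against 34.7% of all genes) and 13 in Hyp-Imm (30.2%, against 11.3%), while 4 had one in Norm-Sen but not Norm-Pro, 3 in Hyp-Imm but not Hyp-Pro and 2 in Hyp-Imm but not Norm-Sen. Regions off promoters were then found for 7 members in Norm-Sen, 3 in each passage 1 library and 1 in Hyp-Imm, and Tfcp2l1 peaks of immortalized MEFs near 3. With 37770 peaks in each library, 1 member was open in Norm-Pro and not Norm-Sen, 2 in Hyp-Imm but lacking in Norm-Sen, 5 in Norm-Pro but lacking in Hyp-Pro, and 7 had a region off promoters in Norm-Pro. The count in Hyp-Imm and not Norm-Sen was 2 with the 5′ end of the gene as its only TSS, 0 with a window of 500 bp and 2 with a window of 2 kb. With no flank, 7 members had a region off promoters in Norm-Pro and 10 in Hyp-Imm, and with a flank of 20 kb the counts were 33, 27, 22 and 28. Without centring, 8 members were lower in Hyp-Imm than in Hyp-Pro, 13 lower than in Norm-Sen and 0 higher in Hyp-Pro than in Norm-Pro, and with the deposited fold the last was also 0. Tfcp2l1 peaks of immortalized MEFs lay near 1 member at 50 kb and 1 at 10 kb. In 200 bp around the summit the E2F letters were found in 18.6% of members (2.31% of all genes with a peak) and the GC box in 67.4% (58.7%). From 100 bases before to 50 after the TSS the GC box was found in 59.5% of promoters (38.3% of all and 50.4% of those of genes with a peak), and the E2F letters in 21.6% (1.56%). Both E2F shares are given for comparison and lie within the interval of the main share, 18.0 to 49.8. No paired analysis was possible because each condition has 1 library. With only genes whose 2 peaks overlap, added after the data were seen, no count past a centred ratio of 1 changed. Depth was lowest in Hyp-Imm.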
